A study of Mus musculus with 8 samples.

Results

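The effect of the G9a/GLP inhibitor UNC0642 on RNA levels was measured in mouse embryonic stem cells (mESCs) that still expressed SETDB1. The comparison used 4 of the 8 libraries: the 2 UNC0642-treated mESC libraries and the 2 WT mESC libraries, chosen by their sample titles. All came from a single line, the Setdb1 conditional knockout line #33-6, so line and clone effects cannot be told apart from general ones. WT mESCs received neither compound, and treated mESCs received 2 µM UNC0642 for 3 days. The remaining 4 libraries, used for the shared estimate of the spread and for a second measurement of the inhibitor, were Setdb1 KO mESCs given 800 nM 4-OHT for 5 days and the same KO with the inhibitor, for which the labels give 800 nM 4-OHT for 2 days and then 2 µM UNC0642 for 3 days. Each group had 2 libraries, which are biological replicates according to the methods of the study.

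G9a (encoded by Ehmt2) and GLP (encoded by Ehmt1) act as a heterodimer that places mono- and dimethyl marks on lysine 9 of histone H3 (H3K9), a modification of silent chromatin. UNC0642 is a small molecule that blocks the catalytic SET domains of both enzymes. In mESCs the pair is known for silencing germline genes and the endogenous retrovirus MERVL. MERVL and a set of genes driven from its long terminal repeats are normally transcribed in 2-cell embryos and in a rare fraction of cultured mESCs.

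The total count was 11702590 and 25121876 in the WT libraries (replicates 1 and 2) and 22723641 and 23119234 in the UNC0642-treated libraries, and between 11702590 and 26807807 over all 8. The tables listed 24062 genes and 1153 transposable element subfamilies, of which 15313 and 932 passed the filter on low counts. Levels are given as TMM-normalized CPM (counts scaled to a common library size), which are not scaled by gene length, so they compare libraries and not genes. A count of 3, taken as the detection floor, equals 0.256 and 0.119 CPM by total count in the WT libraries and 0.132 and 0.130 CPM in the treated ones, and floors and intervals cover counting error only. Markers of mESCs were present in every library (8 of 8 genes, summed level 3678 to 4700 CPM in the 4 libraries compared). Of 8 fibroblast markers, which feeder cells would bring, Dcn and Lum had 0 counts in both WT libraries, while Col1a1 was at 2.87 and 9.60 CPM and Col1a2 at 0 and 5.09 CPM. Their summed level was 11.8 and 23.1 CPM in WT mESCs and 6.77 and 20.6 CPM in treated mESCs, higher in replicate 2 of both groups. The 2 WT libraries differed from each other: Utf1, an mESC chromatin factor, was at 32.2 and 344 CPM, and most 2-cell stage genes were lower in WT replicate 1. Levels are therefore given per library, and many changes also per replicate pair, treated over WT with the same replicate number.

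UNC0642 raised 27 genes and lowered none at an adjusted p under 0.05 (edgeR quasi-likelihood test, blocked on replicate number), 0.176% and 0.0% of the genes tested. No subfamily passed in either direction (0.0% higher, 0.0% lower). At an unadjusted p under 0.05, 825 genes were higher (5.39%) and 450 lower (2.94%), and 110 subfamilies were higher (11.8%) and 0 lower (0.0%). In both replicate pairs 667 genes were at least 2-fold higher (4.36%) and 253 at least 2-fold lower (1.65%). The same held for 41 subfamilies upward (4.4%) and 0 downward (0.0%). The median log2 fold change was -0.05 over all genes and 0.35 over all subfamilies.

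Of the 15313 genes tested, 4.36% were at least 2-fold higher in both pairs, and 2013 had both treated libraries above both WT libraries. All 27 called genes were at least 2-fold higher in both pairs, and neither treated library overlapped the WT libraries for any of them. The genes were called on these same libraries, so this agreement is not separate evidence for them. Their log2 fold changes ran from 1.96 to 6.55 with a median of 4.55, and 22 of the 27 exceeded 10-fold. The median was 5.26 in pair 1 and 3.88 in pair 2, and the change was larger in pair 1 for 25 of the 27. The calls depend on the pairing: without the replicate block 0 genes passed, with a smallest adjusted p of 0.0524 (Usp17lb and Usp17le). DESeq2 on the 4 libraries without a block called 91 genes higher, 26 of the 27 among them. Leaving out treated replicate 1 left 3 genes higher and leaving out treated replicate 2 left 10, against 66 and 91 without WT replicate 1 or 2. Without replicate 1 or 2 of UNC0642-treated Setdb1 KO mESCs, which enter through the shared spread and the filter, 4 genes passed in each case, and without Setdb1 KO replicate 1 or 2 there were 71 and 53.

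**Figure D1:**
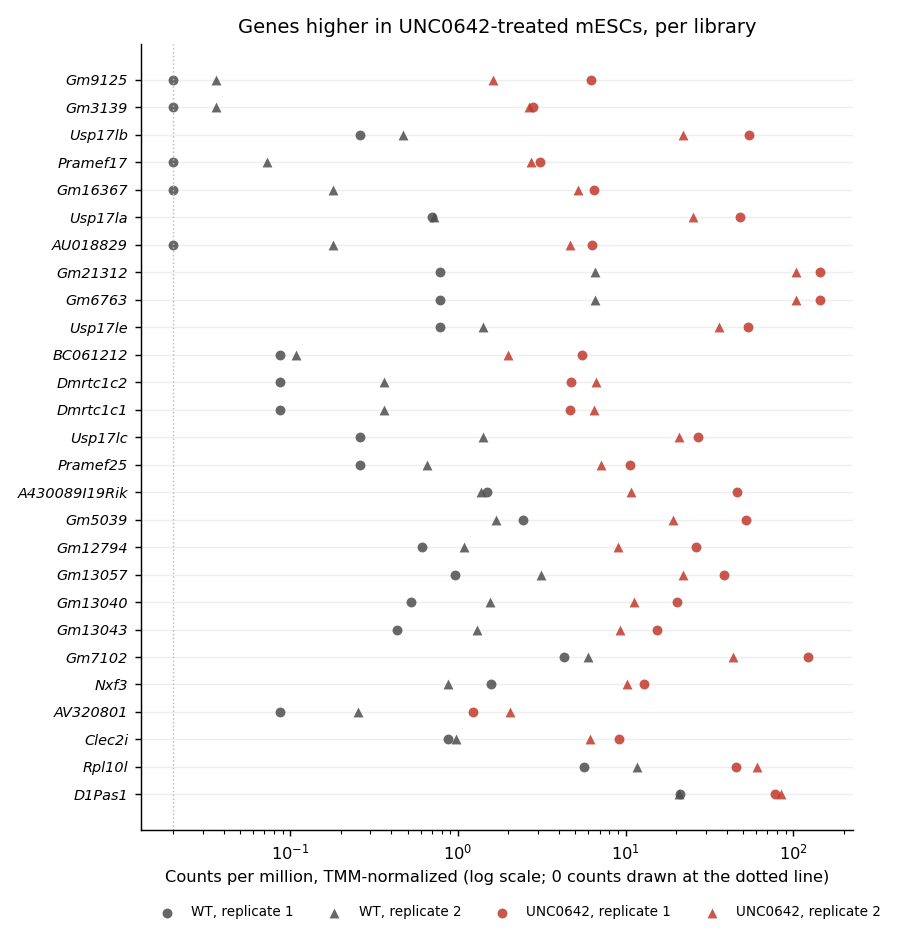
Level of each of the 27 genes higher in UNC0642-treated mESCs in the 4 libraries compared, in TMM-normalized CPM on a log axis, with circles for replicate 1, triangles for replicate 2, grey for WT and red for treated. Genes are ordered by fold change, libraries without a count sit on the dotted line, and for every gene both red symbols lie to the right of both grey symbols.

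The genes with the smallest p were ubiquitin-specific proteases of the Usp17l family, enzymes that remove ubiquitin from proteins and form a tandem cluster on chromosome 7. Usp17lb (chr7:104840257-104842603, minus strand, GRCm38) was at 0.261 and 0.469 CPM in WT mESCs and at 54.2 and 22.01 CPM after UNC0642. Both treated libraries thus lay far above both WT libraries (log2 fold change 6.32 ± 0.45 SE, n = 2 against 2, edgeR adjusted p = 0.00598), by 178-fold in pair 1 and 45.2-fold in pair 2. Usp17le rose from 0.783 and 1.41 to 53.4 and 35.9 CPM (log2 5.18 ± 0.41) and Usp17la from 0.696 and 0.721 to 48.0 and 25.3 CPM (log2 5.47 ± 0.46), each with an edgeR adjusted p of 0.00714. Usp17lc, farther along the chromosome, rose from 0.261 and 1.41 to 26.9 and 20.9 CPM. Family members are similar in sequence, and the counting divides reads that map to several places, so the values of single members are less certain than that of the family.

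The stretches just upstream of the RefSeq starts of 3 of these genes are shown because the genes rose together. The GENCODE annotation gives other starts. Its Usp17lc gene begins at 103415072, before the whole stretch, and its Usp17la and Usp17lb genes begin within theirs. Whether the stretches act as promoters or are transcribed was not tested. They are the 120 bases before the start in RefSeq on GRCm38.p6, 5′ to 3′ on the strand of the gene, and capitals mark a run of 22 bases that all 3 share.
Usp17la, chr7:104856896-104857015, plus strand: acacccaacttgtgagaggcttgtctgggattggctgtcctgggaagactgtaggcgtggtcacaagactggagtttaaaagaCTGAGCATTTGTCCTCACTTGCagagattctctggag
Usp17lb, chr7:104842584-104842703, minus strand: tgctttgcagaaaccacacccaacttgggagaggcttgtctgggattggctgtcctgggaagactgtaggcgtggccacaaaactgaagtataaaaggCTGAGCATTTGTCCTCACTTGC
Usp17lc, chr7:103416576-103416695, plus strand: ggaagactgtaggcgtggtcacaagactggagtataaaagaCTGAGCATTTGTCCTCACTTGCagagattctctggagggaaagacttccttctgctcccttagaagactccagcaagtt

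A second group belonged to the PRAME family, leucine-rich repeat proteins of germ cells and early embryos that are encoded in clusters on chromosomes 4 and 5. A430089I19Rik (Pramel39 in RefSeq) rose from 1.48 and 1.37 to 46.0 and 10.8 CPM (log2 3.98 ± 0.48, edgeR adjusted p = 0.0412). Pramef25 (Pramel16) rose from 0.261 and 0.649 to 10.6 and 7.12 CPM (log2 4.24 ± 0.54). Both were almost silent in WT mESCs, and in both the increase was larger in pair 1. Pramef17 (Pramel14) had 0 and 2 counts in WT mESCs and 66 and 76 after UNC0642, a pooled CPM ratio of 56.7 with a counting interval (95%) of 15.4 to 473. Gm3139 (Pramel42) went from 0 and 1 count to 60 and 74 counts, a pooled ratio of 107 (18.9 to 4259). The WT level of such genes is poorly known: in 6 of the 27 the 2 WT libraries together held at most 6 counts.

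Among the remaining called genes on these clusters, Gm13040, Gm13043, Gm13057 and Gm12794 (Pramel19) on chromosome 4 reached 9.06 to 38.4 CPM in the treated libraries. Upstream of Gm13040 and Gm13057 the 250 bases before the start were identical at 250 of 250 positions. Gm13040 and Gm13043 are shown because their upstream sequences are similar without being identical, with a shared run of 17 bases in capitals that holds the letters TATAAA.
Gm13040, chr4:143535834-143535953, plus strand: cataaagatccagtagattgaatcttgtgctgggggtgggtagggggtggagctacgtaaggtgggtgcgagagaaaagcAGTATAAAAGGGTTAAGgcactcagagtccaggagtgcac
Gm13043, chr4:143511223-143511342, plus strand: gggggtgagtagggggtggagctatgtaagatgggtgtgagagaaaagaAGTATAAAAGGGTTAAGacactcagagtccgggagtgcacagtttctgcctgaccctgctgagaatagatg

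The called genes lay together on the chromosomes. Of the 26 that could be placed on the GENCODE annotation, 13 were directly beside another called gene among the tested genes, while 0.31% of all placed genes were. These 13 were Usp17la, Usp17lb and Usp17le on chromosome 7, Gm13040 with Gm13043 and Pramef17 with Pramef25 on chromosome 4, A430089I19Rik with BC061212 on chromosome 5, Gm6763 with Gm21312 on chromosome 10, and Dmrtc1c1 with Dmrtc1c2 on the X chromosome. Of the genes at least 2-fold higher in both pairs, 33.7% were beside another such gene, against 7.80% of all genes. Clustered paralogs can share reads, and 2 of these neighbour pairs had nearly equal counts: Gm6763 and Gm21312 differed by at most 0.162% in any library, and Dmrtc1c1 and Dmrtc1c2 by at most 1.63%.

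The promoters of the called genes were poor in GC and CpG. RefSeq held promoter windows (250 bases before to 50 after the start) for 18 of the 27 genes, 21 windows in all, with a median GC content of 46% and a median of 3 CpG. Over all tested genes the medians were 60.3% and 19, and over all promoters 52.7% and 7. The E-box CACGTG, searched on both strands like every motif here, was in 0.0% of the 21 windows, 9.59% of those of tested genes and 7.15% of all promoters. TCCCGC, a site of the repressor E2F6, was in 9.52% against 33.6% of tested genes and 19.98% of all promoters. TATAAA, chosen after the sequences had been seen, was in 28.6% against 7.53% and 13.6%. Several windows come from near-identical copies, so they are not independent.

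Nearly all members of the 2-cell stage list were higher, 35 of 36 tested by the sign of the change. Of the 36, 7 rose (Usp17la, Usp17lb, Usp17lc, Usp17le, Pramef25, Gm6763 and BC061212), 32 were at least 2-fold higher in both pairs and 0 were lower (background 0.176% called and 4.36% at least 2-fold higher), with a median log2 fold change of 4.35 (4.32 with Tdpoz1, which had no count in either WT library, at its bound of at least 12.0-fold). The median was 6.18 in pair 1 and 3.23 in pair 2. Gm6763 rose from 0.783 and 6.57 to 145 and 103 CPM (log2 5.24 ± 0.68, edgeR adjusted p = 0.0412), so that pair 1 gave 175-fold and pair 2 15.7-fold. The number of members called depended on the fit: edgeR on the 4 compared libraries with the block called 28 of 34 tested, DESeq2 on all 8 with the block 27 of 35 with an adjusted p, DESeq2 on the 4 without a block 24 of 36, edgeR with no filter 25 of 36 and edgeR without the block 0. It was 3 without treated replicate 1, 5 without treated replicate 2, 18 without WT replicate 1 and 24 without WT replicate 2. Leaving out replicate 1 or 2 of Setdb1 KO gave 21 and 13, and leaving out either library of UNC0642-treated Setdb1 KO mESCs gave 3. In these bulk samples, more cells in a 2-cell-like state and more RNA per such cell cannot be told apart.

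Other members of the list, chosen here after their values were seen, did not pass. Zscan4c, a zinc finger protein that marks 2-cell-like cells, was at 5.14 and 14.5 CPM in WT mESCs and at 433 and 133 CPM after treatment (log2 4.40 ± 0.73, edgeR adjusted p = 0.0693). Zscan4d was at 1.65 and 3.93 against 144 and 37.97 CPM (adjusted p = 0.0531). The groups did not overlap in either gene, but the WT libraries differed more than 2-fold and so did the treated ones. Dux, the transcription factor that activates MERVL and Zscan4, was at 0.261 and 1.91 CPM in WT and 1.64 and 4.39 CPM in treated mESCs, so that the groups overlapped although both pairs were higher (log2 1.64 ± 0.51, adjusted p = 0.390). Dppa2 and Dppa4, the DNA-binding activators upstream of Dux, had log2 values of 0.33 ± 0.32 and -0.06 ± 0.28.

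MERVL followed the same pattern as these genes. MERVL-int, the internal region of the provirus, had 97.8 and 270 CPM in WT mESCs and 5520 and 2234 CPM in treated mESCs (log2 4.07 ± 0.71, edgeR adjusted p = 0.0821). Its long terminal repeat MT2_Mm had 10.6 and 17.3 against 333 and 111 CPM (log2 3.62 ± 0.55, adjusted p = 0.0540). Together they took 0.0106% and 0.0317% of all counts in the WT libraries (Wilson 95% intervals 0.0101 to 0.0113 and 0.0310 to 0.0324) and 0.548% and 0.282% in the treated ones. WT replicate 1 was lowest and treated replicate 1 highest, so the log2 change was 5.82 in pair 1 and 3.05 in pair 2 for MERVL-int. The subfamilies named in this and the next paragraphs were picked after their values were seen.

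Young LINE-1 elements, retrotransposons that still move in the mouse genome, were the other group that stood out. L1Md_T was at 643 and 563 CPM in WT and 2873 and 1909 CPM in treated mESCs (log2 1.92 ± 0.40, edgeR adjusted p = 0.147). L1Md_Gf was at 16.4 and 16.3 against 92.5 and 62.5 CPM (log2 2.15 ± 0.40, adjusted p = 0.101), and L1Md_A at 153 and 94.0 against 414 and 266 CPM (log2 1.47 ± 0.29, adjusted p = 0.120). In all 3 the treated libraries lay above both WT libraries, and the pairs gave similar values. The 6 L1Md subfamilies were all higher at an unadjusted p under 0.05, with a median log2 of 1.22 (1.31 in pair 1 and 1.21 in pair 2). They took 0.137% and 0.113% of counts in WT and 0.419% and 0.339% in treated mESCs.

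By family median other repeats moved less, but some single subfamilies had log2 values as high as those of young LINE-1 elements. Among them were ERVB4_2-LTR_MM (log2 2.23 ± 0.35, edgeR adjusted p = 0.0615) and RLTR45-int (log2 2.01 ± 0.40, adjusted p = 0.127), both of the ERVK family. The L1 and ERVL counts that follow include the L1Md subfamilies, MERVL-int and MT2_Mm. Of the families with the most subfamilies, ERVK had 35 of 273 higher at an unadjusted p under 0.05, L1 31 of 127, ERV1 12 of 103, ERVL 12 of 94 and ERVL-MaLR 11 of 87, with medians between 0.33 and 0.48, against 11.8% of all subfamilies and a median of 0.35. None of 35 SINE subfamilies was, with a median of 0.13. RLTR6B_Mm, a long terminal repeat of the ERV1 family, was at 6.44 and 5.09 against 31.8 and 13.7 CPM (log2 1.86 ± 0.28, edgeR adjusted p = 0.0540). IAPEz-int, the internal region of the intracisternal A particles (IAP) whose silencing rests on SETDB1, was at 418 and 281 in WT and 426 and 267 CPM in treated mESCs (log2 -0.02 ± 0.32). Of 25 IAP subfamilies 3 were higher at an unadjusted p under 0.05, against 11.8% of all subfamilies, with a median log2 of 0.23. All subfamilies together took 3.70% and 2.77% of counts in WT and 5.46% and 3.93% in treated mESCs.

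The absence of called subfamilies depended on the fit. With the replicate block, edgeR on the 4 compared libraries alone called 22 subfamilies higher (2.57% of those tested) and DESeq2 on all 8 called 15 (1.66%), with 14 in both lists. MERVL-int, MT2_Mm and 5 of the 6 L1Md subfamilies were called in each. DESeq2 on the 4 libraries without a block called 5: MERVL-int, MT2_Mm, L1Md_Gf, L1Md_T and RLTR45-int.

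**Figure D2:**
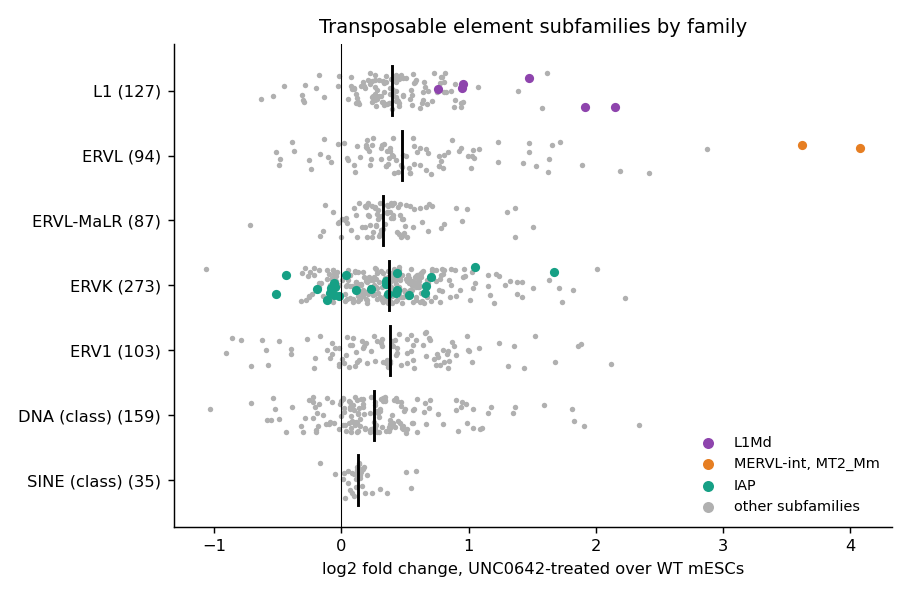
log2 fold change of UNC0642-treated over WT mESCs for the subfamilies of 5 retrotransposon families and of the DNA and SINE classes, 1 point per tested subfamily (number in brackets) with random vertical spread, and a black bar at the median. MERVL-int and MT2_Mm (orange) lie at 4.07 and 3.62, the 6 L1Md subfamilies (purple) between 0.76 and 2.15, and the IAP subfamilies (green) have a median of 0.23.

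Germline genes were followed in 2 further lists, X-linked families and genes that promoter methylation silences in somatic cells. Nxf3, an X-linked RNA export factor of the testis, was at 1.57 and 0.866 CPM in WT and 12.8 and 10.2 CPM in treated mESCs, without overlap (log2 3.29 ± 0.39, edgeR adjusted p = 0.0412). It was the 1 gene of 29 tested in X-linked germline families to rise (0.176% of all genes). With the block, DESeq2 on all 8 libraries called 4 of 26 members higher (212 of 14655 genes). edgeR on the 4 compared libraries with the block called 4 of 24 (255 of 14403 genes). DESeq2 on the 4 without a block called 1 of 29 and edgeR without the block 0. Of the 29, 15 were higher and 0 lower at an unadjusted p under 0.05 (5.39% and 2.94% of all genes). The median log2 was 2.27, or 1.73 with 3 genes that had no WT count at their bound and 2 without a fold left out. Xlr3c of the Xlr family of meiotic chromatin proteins, picked after its value was seen, was at 0.261 and 0.289 against 2.44 and 1.58 CPM (log2 2.72 ± 0.48, adjusted p = 0.0872). Mageb16 and Rhox5 of the same list stayed at log2 values of 0.00 ± 0.27 and 0.06 ± 0.30. Dmrtc1c2, an X-linked relative of the doublesex-type sex determination factors, rose from 0.087 and 0.361 to 4.70 and 6.62 CPM (log2 4.59 ± 0.50, adjusted p = 0.0279). AV320801, also on the X chromosome, rose from 1 and 7 counts to 26 and 57.

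Of 61 tested genes of the second list, 8 were higher and 1 lower at an unadjusted p under 0.05 (5.39% and 2.94% of all genes). The median log2 was 0.18, and 1 gene rose (0.176% of all genes). The 1 was Rpl10l, a testis copy of the X-linked ribosomal protein gene Rpl10, which was at 5.66 and 11.7 CPM in WT and 45.3 and 60.7 CPM in treated mESCs (log2 2.64 ± 0.34, edgeR adjusted p = 0.0412). Both treated libraries were at least 3 times the higher WT library. With the block, DESeq2 on all 8 libraries called 3 of 58 members of this list higher (212 of 14655 genes). edgeR on the 4 compared libraries with the block called 2 of 56 (255 of 14403 genes). DESeq2 on the 4 without a block called 1 of 64 and edgeR without the block 0. D1Pas1, a testis RNA helicase on chromosome 1, had close replicates: 21.0 and 20.8 CPM in WT and 78.3 and 84.0 CPM in treated mESCs (log2 1.96 ± 0.26, adjusted p = 0.0412). These were the 2 called genes whose windows held TCCCGC, 43 bases before the start in Rpl10l and, on the other strand, 147 before it in D1Pas1. The site of Rpl10l is in capitals.
Rpl10l, chr12:66284402-66284521, minus strand: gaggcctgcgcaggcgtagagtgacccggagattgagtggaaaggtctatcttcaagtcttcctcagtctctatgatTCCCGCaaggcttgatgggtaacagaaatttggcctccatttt

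Clec2i, a C-type lectin of the natural killer gene complex on chromosome 6, rose from 0.871 and 0.974 to 9.07 and 6.11 CPM (log2 2.99 ± 0.32, edgeR adjusted p = 0.0279). Of the 6 tested Clec2 and Klrb1 genes, 3 were higher at an unadjusted p under 0.05 (5.39% of all genes, with 2.94% lower). Gm5039 rose from 2.44 and 1.70 to 52.1 and 19.203 CPM (log2 3.95 ± 0.36, adjusted p = 0.0115) and Gm7102 from 4.27 and 5.99 to 122 and 43.9 CPM (log2 3.68 ± 0.48, adjusted p = 0.0412). Gm9125 (Tdpoz9), of a family of oocyte and early embryo genes with TD and POZ domains, went from 0 and 1 count to 133 and 45, a pooled ratio of 142 with a counting interval of 25.2 to 5647. Gm16367, on the scaffold JH584299.1, went from 0 and 5 counts to 137 and 145. AU018829, the 1 called gene that could not be placed, went from 0 and 5 counts to 134 and 129. Of the 11 tested oocyte Nlrp genes none passed. Nlrp4c was at 1.74 and 1.73 CPM in WT and 18.9 and 6.22 CPM in treated mESCs (log2 2.59 ± 0.44, adjusted p = 0.0722), with 3 members higher and 2 lower at an unadjusted p under 0.05. Both edgeR on the 4 compared libraries and DESeq2 on all 8, each with the block, called 2 Nlrp genes higher, as did edgeR with no filter, and DESeq2 on the 4 without a block called 1, Nlrp4c (DESeq2 adjusted p = 0.0134).

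**Figure D3:**
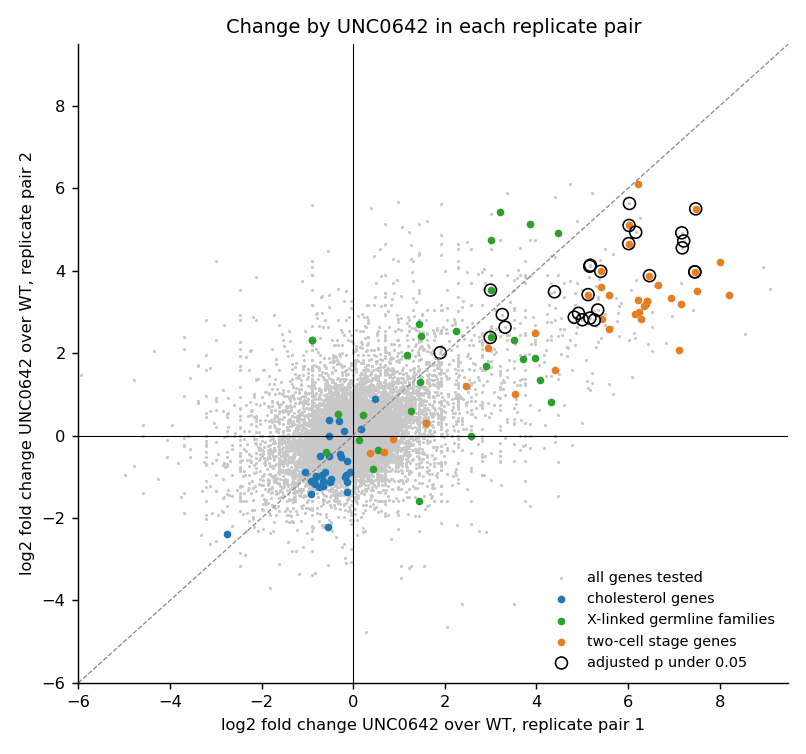
log2 fold change of each tested gene in replicate pair 1 (horizontal) and replicate pair 2 (vertical), with the 2-cell stage, X-linked germline and cholesterol lists coloured, the 27 called genes ringed, and equal change on the dashed line. The 2-cell stage genes have medians of 6.18 and 3.23 in the 2 pairs and lie mostly below the line, and the cholesterol genes cluster below 0 in both.

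No gene passed downward. A list with many lower members was cholesterol synthesis and uptake, the mevalonate and sterol enzymes with their regulators. Of its 32 tested genes, 30 had a negative log2 fold change, as had 8419 of all 15313 genes. At an unadjusted p under 0.05, 17 were lower and 0 higher (2.94% and 5.39% of all genes). The median was -0.73 (-0.54 in pair 1 and -0.97 in pair 2). Mvd, mevalonate diphosphate decarboxylase, was at 38.8 and 97.9 CPM in WT and 20.4 and 36.7 CPM in treated mESCs, lower in each pair and below both WT libraries in both treated ones (log2 -1.18 ± 0.25, edgeR adjusted p = 0.160).

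Srebf2, picked after its values were seen, which encodes the transcription factor of the pathway, was at 173 and 336 against 97.5 and 171 CPM (log2 -0.90 ± 0.23). Lss, lanosterol synthase, also picked after its values were seen, was at 88.4 and 105 against 49.5 and 46.5 CPM (log2 -1.01 ± 0.24). Both treated libraries lay below both WT libraries in each of these genes, narrowly so for Srebf2. Abca1, which exports cholesterol, had a positive value (log2 0.70 ± 0.32). With the replicate block, edgeR on the 4 compared libraries called 55 genes lower (0.382%) beside 255 higher (1.77%), and 9 of the 55 were in this list. DESeq2 on all 8 libraries called 26 lower (0.177%), 7 of them in this list. Without the block 4 of the 32 were lower at an unadjusted p under 0.05, and leaving out single libraries moved the median between -0.98 and -0.55 and that count between 4 (without treated replicate 2) and 19.

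**Figure D4:**
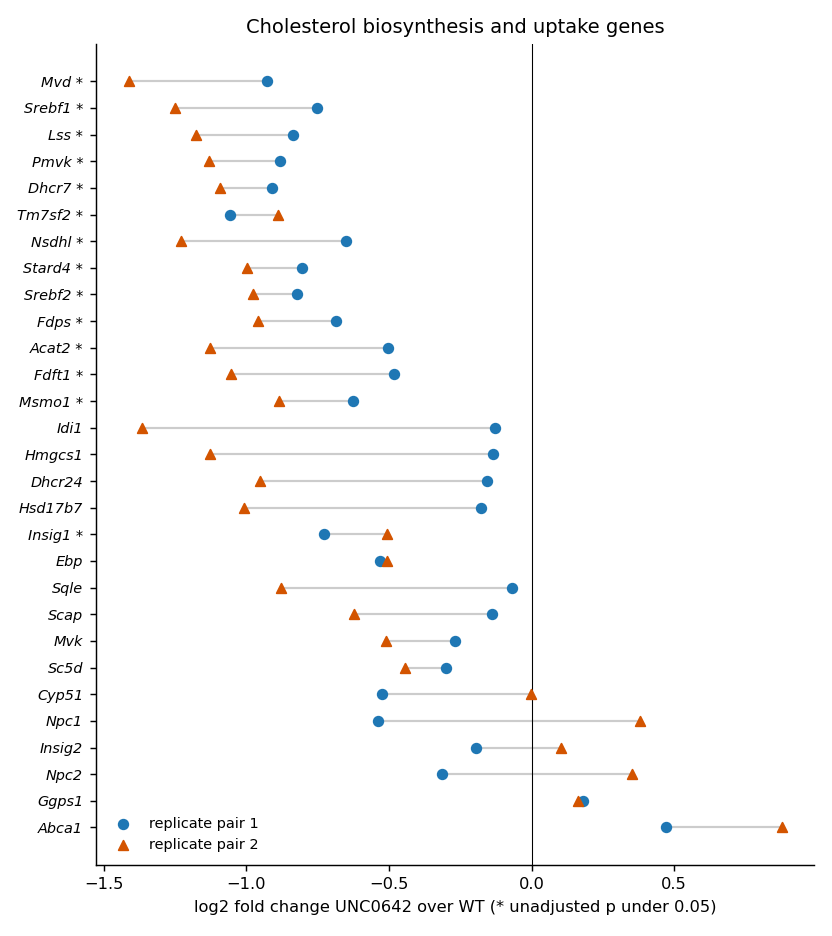
log2 fold change of UNC0642-treated over WT mESCs for 29 of the 32 genes of cholesterol synthesis and uptake, with circles for replicate pair 1 and triangles for pair 2, and an asterisk at an unadjusted p under 0.05. Most genes lie left of 0 in both pairs, with medians over all 32 of -0.54 and -0.97, and the bottom gene Abca1 lies right of 0.

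At an unadjusted p under 0.05, 5.39% of all genes were higher and 2.94% lower, the reference for each list in this paragraph. Of 30 pluripotency factors 4 were higher and 1 lower at that threshold. The pairs disagreed: the median log2 was 0.59 in pair 1 and -0.22 in pair 2. Without WT replicate 1 the median was -0.14 with 1 factor higher, and without WT replicate 2 it was 0.83 with 14. No factor was called, against 4 higher by edgeR on the 4 compared libraries with the block, and 1 by DESeq2 on all 8 with the block or without WT replicate 2. Fbxo15, an F-box protein of undifferentiated mESCs, was at 108 and 125 CPM in WT and 298 and 293 CPM in treated mESCs (log2 1.35 ± 0.30, edgeR adjusted p = 0.182), without overlap. Among 31 primed and germ layer markers 3 were higher and 2 lower. Pdgfra, a receptor of primitive endoderm, was at 2.70 and 5.95 against 18.1 and 15.9 CPM (log2 1.98 ± 0.53, adjusted p = 0.284). The summed level of 5 primitive endoderm markers, Pdgfra among them, was 10.7 and 45.0 CPM in WT and 57.7 and 60.3 CPM in treated mESCs. Sox17 was at 0 in WT replicate 1. Gata4, Sox17 and Dab2 were higher in both pairs, Dab2 barely so in pair 2 (from 11.3 to 11.5 CPM). Gata6 was higher in pair 1 and lower in pair 2 (from 16.1 to 13.4 CPM). The part of primitive endoderm cells in the Pdgfra value was not tested. Of 17 trophectoderm markers 5 were lower and 0 higher, with a median of -0.71 that ran from -1.34 to -0.10 when single libraries were left out. Esx1, a homeobox factor of the placenta, was at 5.31 and 4.33 against 1.13 and 1.22 CPM (log2 -1.99 ± 0.56, adjusted p = 0.328). It was called lower by edgeR on the 4 compared libraries with the block (edgeR adjusted p = 0.0349). That was the 1 call among 16 markers tested there (0.382% of all genes lower), and DESeq2 on all 8 with the block called 0 of 17.

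None of the genes of the H3K9 enzymes passed. Ehmt2, which encodes G9a, was at 99.0 and 200 CPM in WT and 63.2 and 110 CPM in treated mESCs, lower in both pairs but overlapping (log2 -0.77 ± 0.28, edgeR adjusted p = 0.477). Ehmt1 was at 81.0 and 97.8 against 78.6 and 64.2 CPM, and Setdb1 at 169 and 127 against 130 and 86.3 CPM. Of 23 methyltransferases and partners 1 was lower at an unadjusted p under 0.05, against 2.94% of all genes lower and 5.39% higher. Of 12 demethylases Kdm4d, a testis H3K9 demethylase, was higher (0 and 5 counts against 12 and 40) and Kdm4b lower at that threshold. None of the 15 genes of the PRC1.6 and E2F6 repressors and none of the 17 DNA methylation enzymes passed even unadjusted. These are RNA levels, and the inhibitor acts on the proteins.

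The stress and immune lists gave no call in the blocked edgeR fit of all 8 libraries. At an unadjusted p under 0.05, 5.39% of all genes were higher and 2.94% lower, the reference for each list in this paragraph. Of 32 ATF4 and unfolded protein targets 6 were higher and 0 lower at that threshold. The pairs disagreed: the median log2 was -0.15 in pair 1 and 0.84 in pair 2. Atf3, a stress-induced transcription factor, was at 0.696 and 1.55 CPM in WT and 3.57 and 26.4 CPM in treated mESCs (log2 3.48 ± 0.83, edgeR adjusted p = 0.229). It passed in DESeq2 on the 4 libraries without a block (adjusted p = 0.00498) and with the block in DESeq2 on all 8 (adjusted p = 0.000629) and edgeR on the 4 (adjusted p = 0.00172), which called 1, 1 and 4 members of this list higher. Without WT replicate 1 the median was 1.17 with 1 called, and without WT replicate 2 it was -0.24 with 0. Of 29 RNA sensing and interferon-stimulated genes 1 was higher and 5 lower, and Dhx58, an RNA sensor of the RIG-I family, was at 1.57 and 2.34 against 0.282 and 0.611 CPM. Of 31 p53 targets 1 was higher and 2 lower, with a median of -0.29. Of 26 genes of MHC class I and antigen processing 0 were higher and 2 lower, again unadjusted, with medians of -0.66 in pair 1 and -0.04 in pair 2. Without WT replicate 1 the median was 0.11 with 0 lower, and without WT replicate 2 it was -0.91 with 9 lower. Tap1, a peptide transporter, was called lower by edgeR on the 4 compared libraries with the block (adjusted p = 0.0451). Lysosome, imprinted, neurotransmitter receptor, cell cycle, fibroblast and housekeeping genes had medians between -0.17 and 0.10. Of the 25 neurotransmitter receptor genes, 4 were higher and 1 lower at an unadjusted p under 0.05. In the lysosome, imprinted, cell cycle and fibroblast lists the members of smallest p had log2 values of 1.14 ± 0.34 (Mitf, a regulator of lysosome and pigment genes), -1.08 ± 0.39 (Inpp5f, an inositol phosphatase), -0.66 ± 0.25 (Aurkb, a mitotic kinase) and -1.33 ± 0.48 (Fbln2, a matrix protein). The same members of the p53 and MHC lists were at -0.76 ± 0.26 (Zmat3, an RNA-binding p53 target) and -2.19 ± 0.89 (H2-Q7, a class I heavy chain). None of these 6 passed, with edgeR adjusted p-values from 0.365 to 0.551.

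The same inhibitor was also applied to Setdb1 KO mESCs, in 4 libraries that played no part in choosing the 27 genes by level. By the labels, the KO had 4-OHT for 5 days and the combined group for 2 days before the inhibitor. The inhibitor and this difference in schedule cannot be told apart in these libraries. There all 27 were higher with UNC0642 and 24 were at least 2-fold higher in both pairs, with a median log2 of 2.32 against 4.55 in WT mESCs. Over all genes the median there was -0.04, and the share at least 2-fold higher in both of these pairs was not counted. At an unadjusted p under 0.05, 26 of the 27 were higher, against 4.94% of all genes. At an adjusted p under 0.05, 4 were called (AV320801, Nxf3, Usp17lb and Gm5039), against 0.118% of all genes. Without the replicate block none was, and leaving out WT replicate 1 or 2 raised the count to 21 and 25, while leaving out any library of these 4 lowered it to 0 or 1. These 4 libraries also enter the estimate of the spread behind the 27 calls.

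The log2 rise was mostly smaller in Setdb1 KO mESCs, where most of these genes started higher. Without the inhibitor, all of the 27 genes except Nxf3 had a positive log2 change in the KO over WT mESCs. The share of all genes with a positive change there was not counted. The WT libraries of this change also helped to choose the 27 genes. Usp17lb was at 13.1 and 7.48 CPM in the KO and at 135 and 79.6 CPM with both treatments. The part of the higher start in the smaller rise was not tested. The difference between the 2 UNC0642 effects had an unadjusted p under 0.05 for 22 of the 27 genes. In 20 of them it went toward a smaller rise in the KO, against 1.57% of all genes. None passed the adjustment, and the WT libraries that helped to choose the genes enter this difference, as does the labelled 4-OHT schedule. Usp17le had the smallest p (log2 difference -4.04, adjusted p = 0.537): it was at 29.2 and 22.4 CPM in Setdb1 KO mESCs and at 73.5 and 42.3 CPM with the inhibitor. Clec2i was the 1 gene without a change by UNC0642 in the KO at an unadjusted p under 0.05, at 66.0 and 67.3 against 77.1 and 84.4 CPM (log2 0.28 ± 0.26), levels well above those of either group with SETDB1. For Nxf3 and AV320801 the difference had the opposite sign (log2 1.49 and 1.81). Nxf3 was at 0.466 and 0.385 CPM in Setdb1 KO mESCs and at 12.0 and 11.3 CPM with UNC0642, close to its treated level with SETDB1. AV320801 reached 33.2 and 52.6 CPM with both treatments, against 1.22 and 2.05 CPM with UNC0642 alone and 0.931 and 1.87 CPM in the KO.

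**Figure D5:**
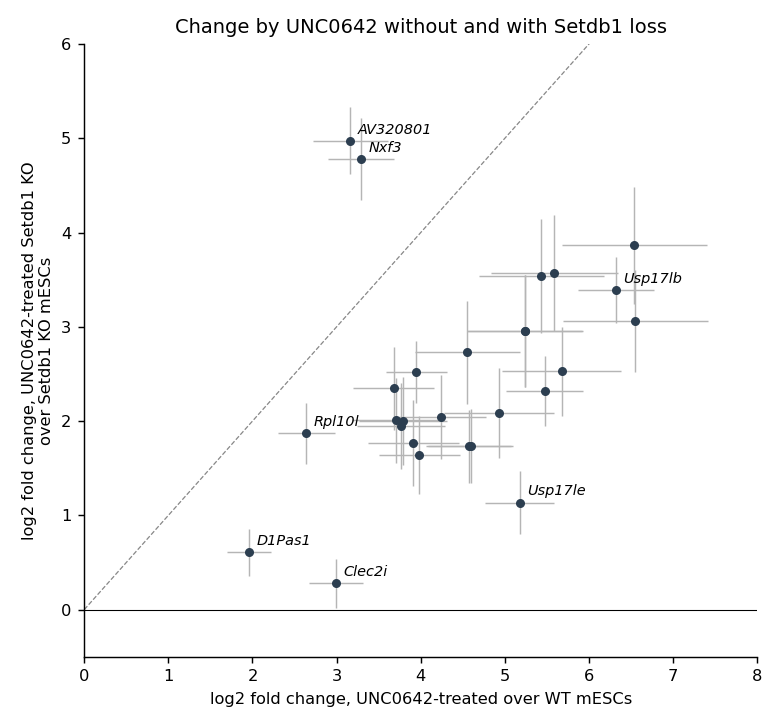
log2 fold change by UNC0642 in WT mESCs (horizontal) and in Setdb1 KO mESCs (vertical) for the 27 called genes, with bars of 1 SE and equal change on the dashed line. Of the 27 genes, 25 lie below the line, Nxf3 and AV320801 lie above it, and Clec2i is near 0 in Setdb1 KO mESCs.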

How the data were processed

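Poly(A) RNA-seq of 8 mESC libraries was analysed, 4 of them for the main comparison. The authors trimmed reads (Trim Galore 0.3.7, per the submitters' processing notes), mapped them to GRCm38 with TopHat2 and counted them with TEtranscripts at its default settings, which shares multi-mapping reads among positions. The deposited files hold raw counts, without normalization, for genes and repeat subfamilies. The gene annotation is not given in the sources used here.

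Features were filtered with filterByExpr (minimum count 10, minimum total count 15) and fitted in edgeR 4.0.16 (R 4.3.3; TMM factors, quasi-likelihood test) over all 8 libraries, with 1 coefficient per group and the replicate number as a block. With 2 groups of 2 alone, the block would leave 1 residual degree of freedom. p-values were adjusted by Benjamini-Hochberg over genes and subfamilies together and called under 0.05. Fold changes used a prior count of 0.125, and pair values a pseudocount of 0.5 counts. The SE came from the fold change and the F statistic. The labels number the replicates 1 and 2 in every group but give no sign of paired cultures. Replicate deviations correlated between groups across genes at 0.351 to 0.706 (0.706 for WT with UNC0642-treated), and the block was kept as designed. No test of gene lists was run; they are described by counts and medians. The fit was tested on simulated counts.

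GENCODE M21 gave the positions of genes (14570 by symbol, 603 by RefSeq synonym, 140 not placed), and promoters came from RefSeq (GRCm38.p6). Genes named are the 15 called genes of smallest p and the 5 of largest fold change in each direction, up to 4 called genes or the gene of smallest p per list, and Ehmt1, Ehmt2, Setdb1 and Hprt. Others are said to have been picked after their values were seen, which also holds for Gm13040, Gm13043, Gm13057, Gm12794, Usp17lc, AU018829, AV320801, D1Pas1, Utf1, Dcn, Lum, Col1a1, Col1a2, Tap1, Dppa2, Dppa4, Mageb16, Rhox5 and Kdm4b. The primitive endoderm markers Sox17, Gata4, Gata6 and Dab2 were also named after their values were seen. The comparison and the lists were chosen with earlier results of these data known. Alternatives were DESeq2 1.42.0, no block, 4 libraries, other normalizations, no filter, thinned counts, another prior count and leaving out each library. Values of some genes are not reported here.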

Additional observations from a re-analysis of the deposited data

How the results depend on the processing

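The number of genes higher (27) depended on the fit, and the causes were not tested. Without the replicate block, that is without the pairing, 0 genes passed, 458 were higher and 64 lower at an unadjusted p under 0.05, and 0 of the 27 passed for UNC0642 in Setdb1 KO mESCs (4 with the block). DESeq2 on the 4 libraries without a block gave 91 genes higher, 1 lower and 5 subfamilies higher. DESeq2 on all 8 with the block gave 212, 26 and 15, and edgeR on the 4 with the block gave 255, 55 and 22; both of these included all 27 genes. Without an expression filter there were 107 genes and 9 subfamilies higher, with total counts normalization 40 genes and 2 subfamilies, and with counts thinned to the smallest library 36 genes (22 of the 27) and 1 subfamily. RLE size factors gave 18 genes, and TMM factors from genes only 29. Leaving out each library in turn gave 3 to 91 genes higher, 0 to 4 lower (4 without WT replicate 1), 0 to 9 subfamilies higher (9 without WT replicate 2), 0 to 25 of the 27 for UNC0642 in the KO, and 0 to 7 of the 27 for the difference between its effects (7 without WT replicate 2). No subfamily was lower under any alternative. Of the 40 genes followed singly, 2 changed sign: Hprt, a reference gene, ranged from -0.66 to 0.12 over the left-out libraries (0.11 without WT replicate 1 and 0.12 without treated replicate 2), and Dnmt1 from -0.83 to 0.055 (positive without WT replicate 2), neither ever past the threshold. The depth of WT replicate 1, 11702590 counts, limits the low genes.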
